A study of Drosophila melanogaster with 7 samples.

Results

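The genes Ih, Hk, qvr and Slob encode an ion channel and 3 partners of potassium channels. These genes were followed through 6 RNA libraries of adult Drosophila melanogaster, made from nuclei of heads or from the whole dissected brain. They were chosen by symbol and are 4 of the 15551 fly genes in the deposited gene table, each with a single entry (CG8585 for Ih, CG43388 for Hk, CG33472 for qvr and CG6772 for Slob). The isoform table lists 11 isoforms of Ih, 7 of Hk, 8 of Slob and 1 of qvr. In the tagged groups a GAL4 line drove unc84-GFP, a tag of the nuclear membrane, and the tagged nuclei were pulled out of large batches of frozen adult heads, eyes included. OK107-GAL4 is expressed primarily in Kenyon cells, which form the mushroom body, the fly's centre of odour memory, and has 2 libraries, OK107 a and OK107 b. Tdc2-GAL4 is expressed primarily in octopaminergic neurons, which release the amine octopamine, also with 2 libraries, Tdc2 a and Tdc2 b. R57C10-GAL4 marks all mature neurons and has 1 library, although the labels list 2 samples. The last library is of the whole dissected brain, with all its cells and no tag. How its RNA was taken is not given in full in the sources used here, so a whole brain and a tagged-nuclei library differ in cells and in preparation at once. OK107 and Tdc2 mark their cells primarily and not only, and nothing in the labels says whether the libraries of a line came from separate preparations. Strain and sex are not given in the sources used here.

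Ih encodes the fly's only hyperpolarization-activated, cyclic nucleotide-gated cation channel, which opens as the membrane becomes more negative and so shapes firing rhythm. Hk (Hyperkinetic) encodes the cytoplasmic beta subunit of the Shaker (Sh) potassium channel. qvr (quiver, also called sleepless) encodes a small membrane-anchored protein of the Ly-6 family that raises the level and activity of Sh. Slob (Slowpoke binding protein) encodes a cytoplasmic protein that binds and modulates the calcium-activated potassium channel Slowpoke (slo), together with 14-3-3 proteins. Flies that lack Sh, Hk or qvr shake under ether, and sleep is reduced in each of these mutants.

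Genes that define the GAL4 lines went with the labels: ey, a mushroom body regulator, was at 248 and 259 FPKM in OK107 and at most 35.9 FPKM in the other 4 libraries, and Tbh, which makes octopamine, was at 1668 and 2159 FPKM in Tdc2 and at most 38.3 FPKM elsewhere. FPKM is the number of fragments per kilobase of transcript, scaled to the mapped fragments of the library, so levels of different genes may be compared. Of 5 pan-neuronal genes listed, 3 had a value in all 6 libraries, and they were highest in different ones. elav was at 153 to 277 FPKM, highest in R57C10. n-syb was at 934 to 1541 FPKM, highest in Tdc2 a, and Rab3 at 333 to 601 FPKM, highest in whole brain. brp, with no value in OK107 b, was lowest in whole brain (87.1 FPKM) and highest in R57C10 (319 FPKM). Syt1, with no value in R57C10, was lowest in whole brain (776 FPKM) and highest in Tdc2 b (1054 FPKM). The summed level of 5 glial markers with a value in every library was 195 and 201 FPKM in OK107, 428 and 505 FPKM in Tdc2, 91.7 FPKM in R57C10 and 3228 FPKM in whole brain. Eaat1, left out for want of a value in OK107 a, was at 27.7 FPKM in OK107 b and 39.3 and 61.9 FPKM in Tdc2. Unlike the sum, it was higher in R57C10 (67.4 FPKM) than in these libraries, and it was at 596 FPKM in whole brain. The summed level of 6 photoreceptor markers was 1349 and 1354 FPKM in OK107, 5848 and 4950 FPKM in Tdc2, 624 FPKM in R57C10 and 323 FPKM in whole brain. Most of this sum was ninaE in every library. Each of the 6 was higher in both Tdc2 libraries than in any other, but trp, ninaC and chp rose from Tdc2 a to Tdc2 b. Arr2 alone was higher in whole brain (64.4 FPKM) than in R57C10 (50.8 FPKM), and Arr1 and ninaC were close there. Muscle markers were summed without Tm2, which had no value in whole brain. Their sum was 67.8 and 68.8 FPKM in OK107, 107 and 254 FPKM in Tdc2, 37.4 FPKM in R57C10 and 57.7 FPKM in whole brain. Mlc2 was the largest part of it in every library. wupA and Act88F were higher in whole brain than in OK107, and Mhc, up and Mlc2 were lower. Of the fat body markers, Yp1, a yolk protein gene, made up nearly the whole sum in Tdc2. It was at 22.6 and 23.7 FPKM in OK107, 4104 and 3428 FPKM in Tdc2, 227 FPKM in R57C10 and 2113 FPKM in whole brain. The other fat body markers did not share this order. Lsp2 was at 40.8 FPKM in whole brain and at most 5.03 FPKM elsewhere. The gene to was at 5.77 to 11.97 FPKM in OK107 and Tdc2, 1.65 FPKM in R57C10 and 0.683 FPKM in whole brain. Fbp1 was at most 0.551 FPKM in any library. None of these markers was at 0 in any library, and their part in the results below was not tested. The names of the OK107 columns and of Tdc2 a carry an earlier date tag than those of Tdc2 b, R57C10 and whole brain, and no spike-in RNA was listed above 0 in OK107 a and Tdc2 a. Steps between low FPKM values implied about 23200000 to 59700000 reads per library. At these depths between 4300 and 143400 reads lay behind the levels of Ih, qvr and Slob, for which counting error alone is at most 1.52% of the level.

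All 4 genes were among the more abundant transcripts of every library. qvr was the highest of them, followed by Ih, Hk and Slob, and this order was the same in each of the 6 libraries. In R57C10, qvr ranked 25 and Ih 65 among all genes by FPKM, while Hk ranked 244 and Slob 665. Every one of the 4 was at its lowest in whole brain, where Slob still stood above 85.7% of the genes with a value. Ih, Hk and qvr were highest in R57C10, and Slob was highest in OK107.

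**Figure D1:**
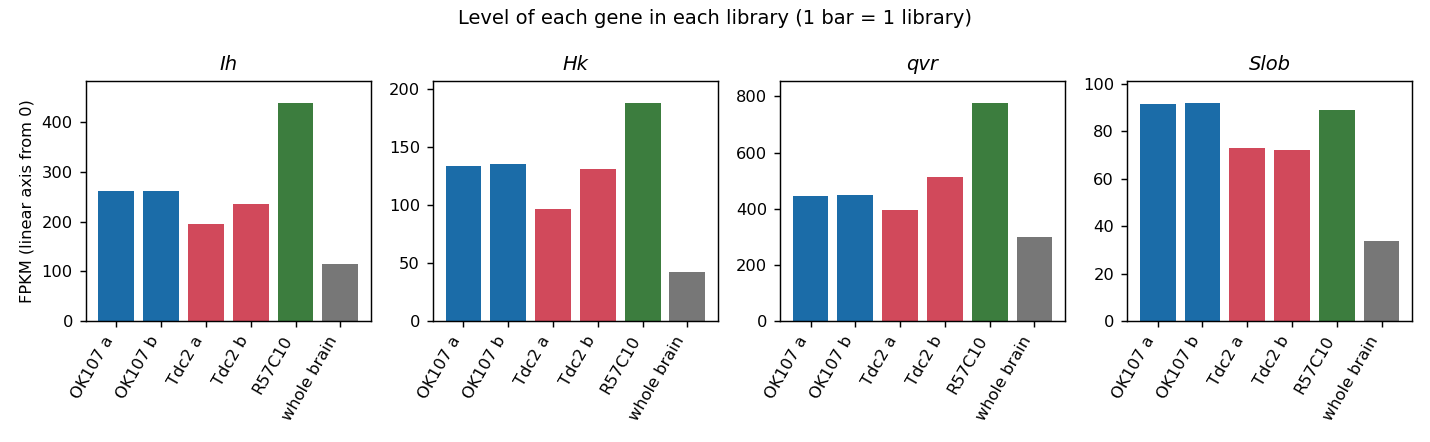
FPKM (vertical axes, linear from 0) of Ih, Hk, qvr and Slob in each of the 6 libraries, 1 bar per library, coloured by group. The whole brain bar is the lowest for all 4 genes; R57C10 is the highest for Ih, Hk and qvr, and for Slob the OK107 bars (91.4 and 91.9 FPKM) and R57C10 (89.1 FPKM) are close together.

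Differences between groups were tested with limma on log2(FPKM + 1) over all genes that reached 1 FPKM in at least 2 libraries, with Benjamini-Hochberg adjustment over all of them and a threshold of 0.05. Each log2 difference below is on that scale, with the group named first over the other. For R57C10 and whole brain, each a lone library, the spread was taken from the libraries of OK107 and Tdc2, and the p-values measure that spread alone, which may be technical. These pairs were unlike: OK107 a and b differed by at most 0.735% for any of the 4 genes, whereas Tdc2 b lay 21.2% above Tdc2 a for Ih, 35.0% for Hk and 30.2% for qvr, and -1.41% from it for Slob. In these bulk samples, fewer cells of a type and less RNA per cell cannot be told apart.

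Ih, the channel gene, was at 262 and 262 FPKM in OK107, 195 and 236 FPKM in Tdc2, 439 FPKM in R57C10 and 115 FPKM in whole brain. Both OK107 libraries lay above both Tdc2 libraries, all 4 lay below R57C10, and whole brain was below every tagged library. Ih was lower in OK107 than in R57C10 by a log2 difference of -0.74 (SE 0.15, limma adjusted p = 0.0277), at 59.7% of the R57C10 level. It was lower in Tdc2 than in R57C10 by -1.03 (SE 0.15, limma adjusted p = 0.00818), at 49.1% of that level. Between OK107 and Tdc2 the difference of 0.29 (SE 0.12) did not pass (limma adjusted p = 0.108), and after median centring it was -0.01. Against whole brain Ih was higher in R57C10 by 1.92 (SE 0.17, limma adjusted p = 0.00146), in OK107 by 1.17 (SE 0.15, limma adjusted p = 0.00301) and in Tdc2 by 0.89 (SE 0.15, limma adjusted p = 0.00851). The authors' deposited table also lists q-values for Ih: 4.80e-07 for whole brain against R57C10, 5.65e-04 for OK107 b against R57C10 and 1.51e-04 for Tdc2 b against R57C10. It lists no q-value under 0.05 for Ih between OK107 b and OK107 a or between Tdc2 a and OK107 a.

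Hk, the beta subunit gene, was at 134 and 135 FPKM in OK107, 96.9 and 131 FPKM in Tdc2, 188 FPKM in R57C10 and 42.3 FPKM in whole brain. R57C10 was the highest library and whole brain the lowest, with Tdc2 b close to the OK107 pair and Tdc2 a below it. The difference of -0.48 between OK107 and R57C10 (SE 0.20) did not pass (limma adjusted p = 0.132). Hk was lower in Tdc2 than in R57C10 by -0.74 (SE 0.20, limma adjusted p = 0.0398). Between OK107 and Tdc2 the difference was 0.26 (SE 0.16, limma adjusted p = 0.233), and after median centring it was -0.04. Among the 4 genes Hk had the widest gap to whole brain: it was 4.45 times as high in R57C10, a log2 difference of 2.13 (SE 0.23, limma adjusted p = 0.00206). It was higher than in whole brain by 1.65 in OK107 (SE 0.20, limma adjusted p = 0.00250) and by 1.39 in Tdc2 (SE 0.20, limma adjusted p = 0.00543). The authors' deposited table gives Hk a q-value of 2.10e-07 for whole brain against R57C10 and lists none for its other comparisons at the gene level.

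qvr, the Ly-6 gene, was at 447 and 448 FPKM in OK107, 395 and 515 FPKM in Tdc2, 777 FPKM in R57C10 and 299 FPKM in whole brain. The Tdc2 libraries lay on either side of the OK107 pair, and all 4 were far below R57C10. qvr was lower than in R57C10 by -0.79 in OK107 (SE 0.18, limma adjusted p = 0.0365) and by -0.78 in Tdc2 (SE 0.18, limma adjusted p = 0.0276). OK107 and Tdc2 differed by -0.01 (SE 0.15, limma adjusted p = 0.955), less than the gap within the Tdc2 pair, and by 0.09 after quantile normalization. Against whole brain qvr was 2.60 times as high in R57C10 (1.37, SE 0.21, limma adjusted p = 0.00526). The differences from whole brain were smaller in OK107 (0.58, SE 0.18, limma adjusted p = 0.0453) and in Tdc2 (0.59, SE 0.18, limma adjusted p = 0.0452). The authors' deposited table lists no q-value for qvr in any of its 5 comparisons.

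Slob, the slo partner gene, was at 91.4 and 91.9 FPKM in OK107, 73.0 and 71.9 FPKM in Tdc2, 89.1 FPKM in R57C10 and 33.6 FPKM in whole brain. The OK107 pair and R57C10 lay within 3 FPKM of each other, the Tdc2 pair was lower than both, and whole brain was lowest. OK107 and R57C10 differed by 0.04 (SE 0.11, limma adjusted p = 0.795), and this value was -0.41 after median centring and -0.02 after quantile normalization. The median over all genes in OK107 against R57C10 was 0.30 as deposited and -0.15 after median centring. The difference of -0.29 between Tdc2 and R57C10 (SE 0.11) did not pass (limma adjusted p = 0.0908). Slob was higher in OK107 than in Tdc2 by 0.33 (SE 0.09, limma adjusted p = 0.0309), the only one of the 4 genes to pass in that comparison. Over all genes the median difference of OK107 over Tdc2 was 0.28 as deposited, and after median centring that of Slob was 0.04 (limma adjusted p = 0.792). Against whole brain Slob was higher by 1.38 in R57C10 (SE 0.13, limma adjusted p = 0.00141), by 1.42 in OK107 (SE 0.11, limma adjusted p = 0.000835) and by 1.09 in Tdc2 (SE 0.11, limma adjusted p = 0.00253). The authors' deposited table gives Slob a q-value of 0.0389 for whole brain against R57C10. It lists none for the other comparisons of Slob at the gene level, among them Tdc2 a against OK107 a.

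**Figure D2:**
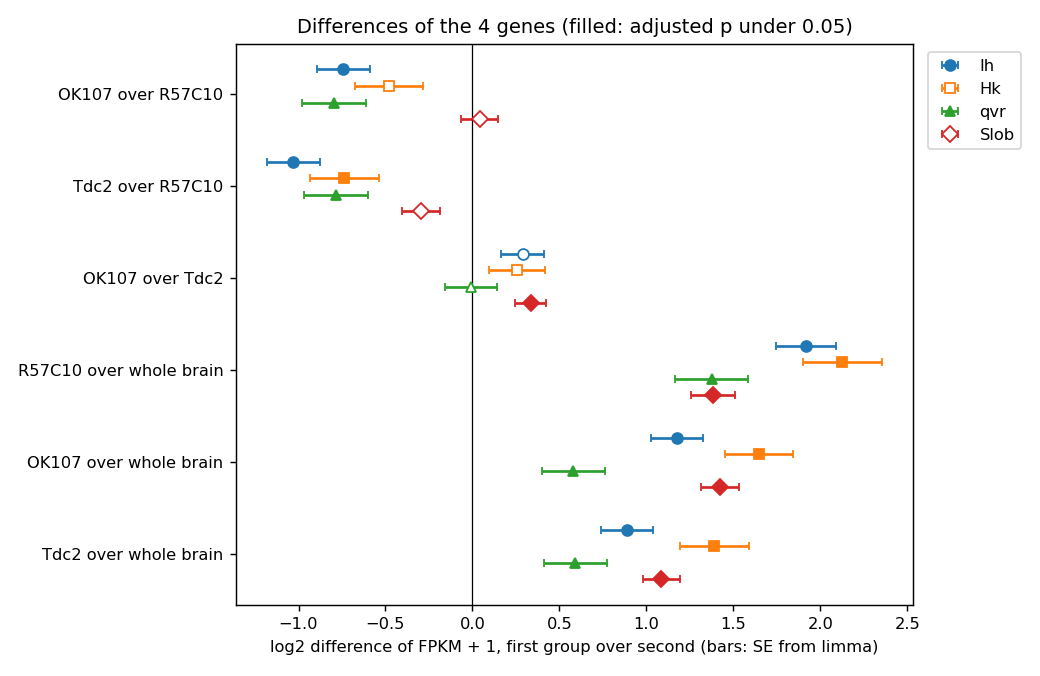
Log2 differences of FPKM + 1 (horizontal axis) for Ih, Hk, qvr and Slob in 6 comparisons, the first-named group over the second, with bars of 1 SE from limma and filled symbols where the adjusted p is under 0.05. All 12 differences from whole brain lie right of 0 and are filled, from 0.58 for qvr in OK107 to 2.13 for Hk in R57C10; of the 8 differences from R57C10, 5 are filled and all of those lie left of 0.

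In OK107 against R57C10, 2 of the 4 genes passed, both lower, where 24.9% of all tested genes passed, 3.56% lower and 21.4% higher. That balance depends on the scaling: 2047 genes passed higher and 341 lower as deposited, 792 higher and 1562 lower with libraries centred on their medians, and 759 higher and 663 lower once quantile normalized. The median of all genes lay 0.30 above 0 in this comparison, so that, relative to it, Ih lay at -1.04, Hk at -0.78, qvr at -1.09 and Slob at -0.26. With libraries centred on their medians, the median difference of all genes was itself at -0.15. The calls of Ih and qvr were lost without OK107 a (adjusted p = 0.155 and 0.156) and without OK107 b (0.172 and 0.171), which leave a lone OK107 library. Both were also lost with a spike-in term (0.0503 and 0.0558), and qvr with no filter on low values (0.0584). Hk passed after median centring (-0.93, limma adjusted p = 0.0193). It also passed without Tdc2 a or without Tdc2 b, at the same log2 difference as with all libraries. In those fits the spread comes from the OK107 pair alone. OK107 and R57C10 share no date tag in their column names. In a fit that adds the date tag, which is estimated from Tdc2 b against Tdc2 a, the differences were -0.47 for Ih, -0.41 for qvr and -0.05 for Hk. In Tdc2 against R57C10, 3 of 4 genes passed, all lower, where 35.9% of all tested genes passed, 15.2% lower and 20.6% higher. As counts these were 1979 higher and 1458 lower, against 1786 higher and 2272 lower with median centring and 1631 higher and 1973 lower with quantile normalization. Without OK107 a or without OK107 b, Ih alone passed, with qvr at an adjusted p of 0.0633 and 0.0597 and Hk at 0.0782 and 0.0757. Hk was also lost with no filter on low values (limma adjusted p = 0.0629), without trend and robust (0.0512) and with a spike-in term (0.0582). Slob passed after median centring (-0.44, limma adjusted p = 0.0311). It also passed with a date-tag term (-0.30), without Tdc2 a (-0.30) and without Tdc2 b (-0.28), where the spread comes from the OK107 pair alone. Within the later date tag Tdc2 b lay below R57C10 by -0.89 for Ih, -0.52 for Hk, -0.59 for qvr and -0.30 for Slob, and Tdc2 a, which carries the earlier tag, by -1.17, -0.95, -0.97 and -0.28. In OK107 against Tdc2, 1 of 4 genes passed, as higher, where 48.3% of all tested genes passed and 34.3% passed as higher. Here 3290 genes were higher and 1341 lower as deposited, 1362 higher and 2073 lower with median centring, and 1809 higher and 1772 lower with quantile normalization. That call of Slob was lost without OK107 a and without OK107 b. It was also lost after quantile normalization (limma adjusted p = 0.107), without trend and robust (0.0528) and with a spike-in term (0.0695). Without Tdc2 b, which leaves a lone Tdc2 library, the differences were 0.43 for Ih, 0.47 for Hk, 0.18 for qvr and 0.32 for Slob. Without Tdc2 a they were 0.15 for Ih, 0.04 for Hk, -0.20 for qvr and 0.34 for Slob. Within the earlier date tag both OK107 libraries lay above Tdc2 a for all 4 genes, by 0.18 for qvr to 0.48 for Hk. Against Tdc2 b, which carries the later tag, OK107 a and b lay at -0.20 and -0.20 for qvr and at 0.04 and 0.05 for Hk.

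All 4 genes passed as higher in each tagged group than in whole brain, where 55.1% of all tested genes passed for R57C10 (22.3% higher, 32.8% lower), 53.5% for OK107 (31.5% higher, 22.0% lower) and 50.3% for Tdc2 (21.2% higher, 29.1% lower). After median centring the balance over all genes turned to 3078 higher and 2068 lower for R57C10 (2140 and 3155 as deposited) and to 2742 and 1943 for Tdc2 (2041 and 2794 as deposited). For R57C10 it was 2461 and 2068 after quantile normalization. In R57C10 against whole brain their log2 differences exceeded those of 89.9% (qvr), 90.0% (Slob), 94.3% (Ih) and 95.6% (Hk) of tested genes. In OK107 these shares were 69.6% (qvr), 84.3% (Ih), 87.5% (Slob) and 90.1% (Hk), and in Tdc2 77.6% (qvr), 84.2% (Ih), 87.8% (Slob) and 91.8% (Hk). These 3 comparisons share the whole brain library and are not independent. The qvr calls in OK107 and Tdc2 were lost without OK107 a (adjusted p = 0.168 and 0.103) and without OK107 b (0.163 and 0.100), and also with no filter on low values (0.0675 and 0.0689) and without trend and robust (0.0596 and 0.0586). In OK107 the qvr call was lost after median centring as well (0.46, adjusted p = 0.0591). R57C10, Tdc2 b and whole brain carry the same date tag, and within it Tdc2 b lay above whole brain by 1.02 for Ih, 1.60 for Hk, 0.78 for qvr and 1.08 for Slob. The summed glial markers were at 91.7 FPKM in R57C10 and 3228 FPKM in whole brain, and their part in these differences was not tested.

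The pore-forming alpha subunits give the setting of these partners. Of 10 voltage-gated or calcium-activated potassium channel genes listed, 9 could be tested, as eag had no value in R57C10 and OK107 a. In R57C10 against whole brain 9 of 9 were higher, where 22.3% of all tested genes passed higher. Their median log2 difference was 1.57 beside -0.22 over all genes. Shab (3.08, SE 0.17) and Sh (2.82, SE 0.28) were furthest, and sei (0.70, SE 0.16) and Shaw (0.88, SE 0.17) nearest to 0. In OK107 against whole brain 9 of 9 were also higher (median 1.62 beside 0.10), where 31.5% of all tested genes passed higher. In Tdc2 6 of 9 were higher and 3 did not pass (median 0.96 beside -0.15), where 21.2% passed higher. In Tdc2 against R57C10 7 of 9 were lower and 2 did not pass (median -0.84 beside 0.03), where 15.2% of all tested genes passed lower. slo (-1.21, SE 0.15), Shab (-0.92, SE 0.15) and Shal (-0.92, SE 0.14) were lowest there, and Sh was lower by -0.86 (SE 0.24, limma adjusted p = 0.0468). In OK107 against R57C10 1 of 9 was higher (elk, 1.14, SE 0.16), 1 lower (SK, the small-conductance calcium-activated channel gene, -0.76, SE 0.14) and 7 did not pass (median -0.04 beside 0.30). Of all tested genes, 21.4% passed higher there and 3.56% lower. In OK107 against Tdc2 6 of 9 were higher, led by elk (1.301, SE 0.13) and slo (1.23, SE 0.12), and 3 did not pass (median 0.73 beside 0.28). Of all tested genes, 34.3% passed higher in that comparison.

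The level of each partner was set beside that of the channel it binds. Sh was at 588 and 613 FPKM in OK107, 373 and 549 FPKM in Tdc2, 819 FPKM in R57C10 and 115 FPKM in whole brain. The FPKM ratio of Hk to Sh was 0.228 and 0.220 in OK107, 0.260 and 0.238 in Tdc2, 0.230 in R57C10 and 0.367 in whole brain. Across the 5 tagged libraries this ratio stayed between 0.220 and 0.260, although Sh itself ranged over more than a factor of 2. The ratio of qvr to Sh was 0.761 and 0.731 in OK107, 1.06 and 0.938 in Tdc2, 0.949 in R57C10 and 2.60 in whole brain. For qvr the whole brain library thus stood apart, and the OK107 libraries were the lowest. slo was at 333 and 341 FPKM in OK107, 130 and 156 FPKM in Tdc2, 332 FPKM in R57C10 and 72.8 FPKM in whole brain. The ratio of Slob to slo was 0.275 and 0.269 in OK107, 0.559 and 0.460 in Tdc2, 0.268 in R57C10 and 0.462 in whole brain. OK107 and R57C10 were close together in this ratio, and the Tdc2 pair and whole brain were higher. In Tdc2 against R57C10 the log2 difference was -1.21 for slo and -0.29 for Slob. These ratios are descriptions and were not tested.

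**Figure D3:**
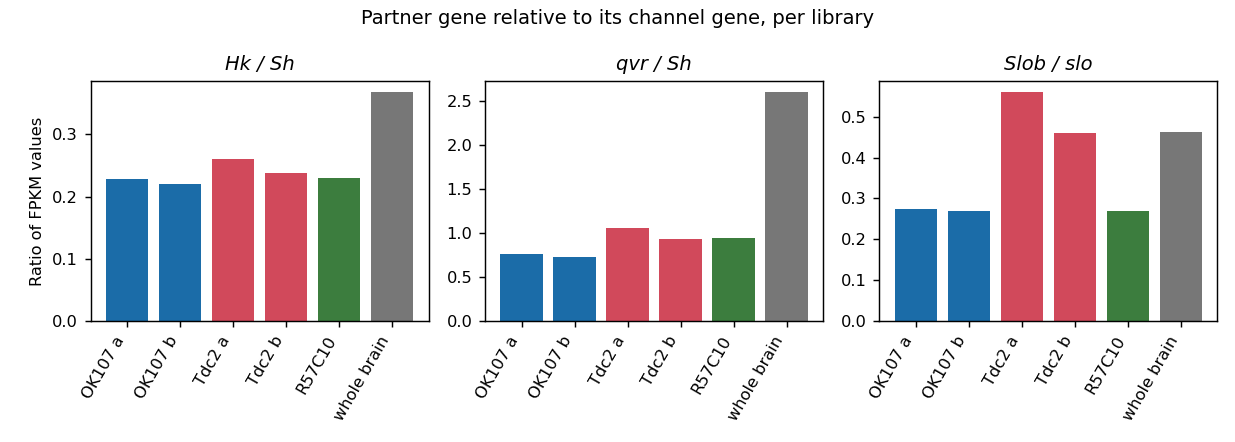
Ratio of the FPKM of a partner gene to that of its channel gene in each library (vertical axes from 0, 1 bar per library). Hk over Sh lies between 0.220 and 0.260 in the 5 tagged libraries and at 0.367 in whole brain, qvr over Sh reaches 2.60 in whole brain, and Slob over slo is higher in Tdc2 (0.559 and 0.460) than in OK107 and R57C10.

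Among other genes whose products bind Slob or the channels, the 14-3-3 gene 14-3-3zeta, whose family of proteins binds Slob, was at 2345 and 2506 FPKM in OK107, 1629 and 1161 FPKM in Tdc2, 1287 FPKM in R57C10 and 4069 FPKM in whole brain. It was lower in R57C10 than in whole brain by -1.66 (SE 0.25, limma adjusted p = 0.00534) and higher in OK107 than in R57C10 by 0.91 (SE 0.22, limma adjusted p = 0.0414). For 14-3-3epsilon the difference of R57C10 over whole brain was -1.97 (SE 0.28, limma adjusted p = 0.00429). CaMKII, a kinase of synapses, had no value in OK107 a and Tdc2 a and was not tested. Of these 5 genes with Sh and slo, 4 were tested, and in R57C10 against whole brain 2 were higher (Sh and slo) and 2 lower. Of all tested genes, 22.3% passed higher there and 32.8% lower.

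The 4 listed genes of cyclic nucleotide-gated channels are relatives of Ih. CG43395 (now Cngl) was at 290 and 306 FPKM in OK107, 138 and 187 FPKM in Tdc2, 344 FPKM in R57C10 and 49.8 FPKM in whole brain. It was lower in Tdc2 than in R57C10 by -1.096 (SE 0.20, limma adjusted p = 0.0146) and higher in R57C10 than in whole brain by 2.76 (SE 0.23, limma adjusted p = 0.00128). CG17922 (now CngB) was higher than in R57C10 in OK107 (0.95, SE 0.13) and in Tdc2 (0.57, SE 0.13), and Cng (now CngA), at 1.61 to 6.74 FPKM, was higher in Tdc2 than in R57C10 (1.00, SE 0.20). CG42260 was higher in R57C10 than in whole brain by 1.17 (SE 0.27). In Tdc2 against R57C10, 2 of the 4 were thus higher, 1 lower and 1 did not pass, where 20.6% of all tested genes passed higher and 15.2% lower.

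In R57C10 against whole brain 22.3% of all tested genes passed higher and 32.8% lower. Of 11 other genes of the Ly-6 family tested, none was higher there, 7 were lower and 4 did not pass (median -0.93 beside -0.22 over all genes). The 4 with the smallest p were CG9338 (-2.27, SE 0.26), CG6583 (-1.40, SE 0.17), bou, which acts at septate junctions (-2.09, SE 0.26), and cold, another septate junction gene (-1.37, SE 0.18). In OK107 against R57C10 5 of 11 were higher, none was lower and 6 did not pass (median 0.66 beside 0.30), where 21.4% of all tested genes passed higher and 3.56% lower, with CG9336 (now bero) at 2.24 (SE 0.23), bou at 2.07 (SE 0.23), rtv at 1.0996 (SE 0.19) and crok at 0.97 (SE 0.21). In Tdc2 against R57C10 4 were higher, 1 lower and 6 did not pass (median 0.48 beside 0.03), where 20.6% of all tested genes passed higher and 15.2% lower, with CG9336 at 2.24 (SE 0.23), bou at 1.496 (SE 0.23), CG9335 (now twit) at -1.74 (SE 0.28) and cold at 0.76 (SE 0.15).

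The profiles of the 4 genes over the 6 libraries were compared with those of 4590 genes with a mean of at least 10 FPKM, by the root mean square difference of log2(FPKM + 1) after each profile was centred on its own mean. The nearest to Ih were pHCl (now pHCl-1, 0.0642), CG16779 (0.0648) and br (0.0730). The nearest to Hk were frtz (0.0683), Cyp4ac2 (0.0754) and RhoGAP100F (0.0802), and to qvr CG6490 (now plum, 0.0365), CG34371 (now side-V, 0.0720) and DmsR-1 (now MsR1, 0.0800). The nearest to Slob were dm (now Myc, 0.0660), mura (0.0888) and Pde8 (0.105). The 4 genes were not each other's nearest: Hk was 67th from Ih and Ih 44th from Hk, at a difference of 0.196, and qvr and Slob were furthest apart at 0.363.

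Isoform levels were read with more caution than gene levels. According to the authors' deposited table, 13.2% of isoforms with a fold change had a q-value under 0.05 between OK107 b and OK107 a, the libraries of 1 line, against 0.172% of genes. qvr has a single isoform there, qvr-RB, so the gene and isoform values are the same. For Ih, Hk and Slob the isoform values sum to the gene value in every library. Ih-RF, Ih-RG, Hk-RG, Slob-RA and Slob-RG were listed at 0 in all 6 libraries, and Hk-RD had no value in any. Isoform use was tested with limma diffSplice at the gene level, and the log2 differences given for single isoforms are relative to the other isoforms of the gene.

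Ih-RB was the leading isoform of Ih in all 6 libraries, with a share of the gene's FPKM of 25.3% and 28.5% in OK107, 29.3% and 27.6% in Tdc2, 32.5% in R57C10 and 38.1% in whole brain. Ih-RM took 23.6% and 22.8% in OK107, 16.1% and 21.1% in Tdc2, 22.2% in R57C10 and 4.98% in whole brain. Ih-RE took 12.03% and 13.9% in OK107, 10.3% and 10.8% in Tdc2, 10.1% in R57C10 and 27.9% in whole brain. Whole brain was thus low in Ih-RM and high in Ih-RE relative to every tagged library. Ih-RI took 17.1% to 28.1% and was highest in the Tdc2 pair. In the current annotation, which is of another genome build, Ih-RM has a coding length of 735 bases, against 3870 for Ih-RB, 3981 for Ih-RE and 1803 for Ih-RI. Use of Ih isoforms differed between R57C10 and whole brain (limma diffSplice adjusted p = 0.0198, where 30.2% of genes tested for isoform use passed), with Ih-RM higher by 1.90 and Ih-RE lower by -2.0045 in R57C10. It also differed in OK107 (adjusted p = 0.00589, where 32.3% passed) and in Tdc2 (0.0173, where 22.2% passed) against whole brain. Without OK107 a or without OK107 b these calls were lost, with adjusted p of 0.127 and 0.127 in R57C10, 0.166 and 0.127 in OK107 and 0.139 and 0.140 in Tdc2. Among the tagged groups the use of Ih isoforms passed in no comparison (adjusted p of 0.510, 0.938 and 0.161), except between OK107 and Tdc2 when Tdc2 a was left out (0.00748).

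Hk-RF and Hk-RJ were the leading isoforms of Hk in the OK107 libraries, in Tdc2 b and in R57C10. Hk-RF took 39.4% and 38.9% in OK107, 29.7% and 35.3% in Tdc2, 31.4% in R57C10 and 28.7% in whole brain. Hk-RJ took 34.6% and 41.5% in OK107, 28.4% and 37.2% in Tdc2, 45.8% in R57C10 and 23.2% in whole brain. Hk-RJ is absent from the annotation at hand by that name, and its structure is not described here. Hk-RI was at 9.78 and 10.2 FPKM in OK107, 5.53 and 6.16 FPKM in Tdc2, 8.10 FPKM in R57C10 and 15.2 FPKM in whole brain. It was the single Hk isoform with a higher level in whole brain than in each tagged library, where it took 35.9% of the gene against 4.31% to 7.52%. Hk-RH was listed at 0 in whole brain and was at 14.6 and 6.29 FPKM in OK107, 27.5 and 18.5 FPKM in Tdc2 and 20.2 FPKM in R57C10. Even within the OK107 pair Hk-RH has a q-value of 4.99e-10 in the authors' deposited table. Use of Hk isoforms differed from whole brain in R57C10 (limma diffSplice adjusted p = 0.00264, where 30.2% of genes passed), in OK107 (0.00493, where 32.3% passed) and in Tdc2 (0.000843, where 22.2% passed). Relative to the other isoforms, Hk-RI was lower in the tagged group by -3.57, -2.71 and -3.39 and Hk-RH higher by 2.98, 2.26 and 3.86, in that order. In OK107 the call of Hk isoform use was lost without OK107 a. Between OK107 and Tdc2 Hk stood at an adjusted p of 0.0517, where 13.4% of genes passed. It passed there after median centring (0.0427), after quantile normalization (0.0436), with a pseudocount of 5 (0.0372) and without Tdc2 b (0.0456).

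Slob-RF was the leading isoform of Slob throughout, with 49.3% and 50.1% in OK107, 56.8% and 47.8% in Tdc2, 52.5% in R57C10 and 68.4% in whole brain. Slob-RB was at 18.5 and 17.8 FPKM in OK107, 0 and 2.62 FPKM in Tdc2, 8.57 FPKM in R57C10 and 3.44 FPKM in whole brain. It took 20.2% and 19.4% of the gene in OK107 and at most 3.64% in Tdc2, with R57C10 (9.62%) and whole brain (10.2%) between them. Slob-RD went the other way, at 6.92% and 8.55% in OK107, 20.6% and 19.8% in Tdc2, 7.24% in R57C10 and 8.01% in whole brain. In the current annotation the coding length is 1914 bases in Slob-RB, 1734 in Slob-RF and 1533 in Slob-RD. Use of Slob isoforms differed between OK107 and Tdc2 (limma diffSplice adjusted p = 0.00225, where 13.4% of genes passed), with Slob-RB higher by 3.39 and Slob-RD lower by -1.98 in OK107 relative to the other isoforms. The authors' deposited table gives Slob-RB a q-value of 0.00209 between Tdc2 a and OK107 a, where 13.1% of isoforms with a fold change had one. It lists none for Slob-RB in its other comparisons, among them Tdc2 b against R57C10. The call was lost without OK107 a (adjusted p = 0.164) and without OK107 b (0.136). Against R57C10 the use of Slob isoforms passed neither in OK107 (0.602, where 3.39% of genes passed) nor in Tdc2 (0.0947, where 6.78% passed). In Tdc2 it passed with a pseudocount of 5 (0.0193) and without Tdc2 b (0.00588). Against whole brain it passed in Tdc2 (0.0196, where 22.2% of genes passed) and not in R57C10 (0.535, where 30.2% passed) or OK107 (0.486, where 32.3% passed). The call in Tdc2 was lost without OK107 a (0.128), without OK107 b (0.129) and with a pseudocount of 0.1 (0.103).

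**Figure D4:**
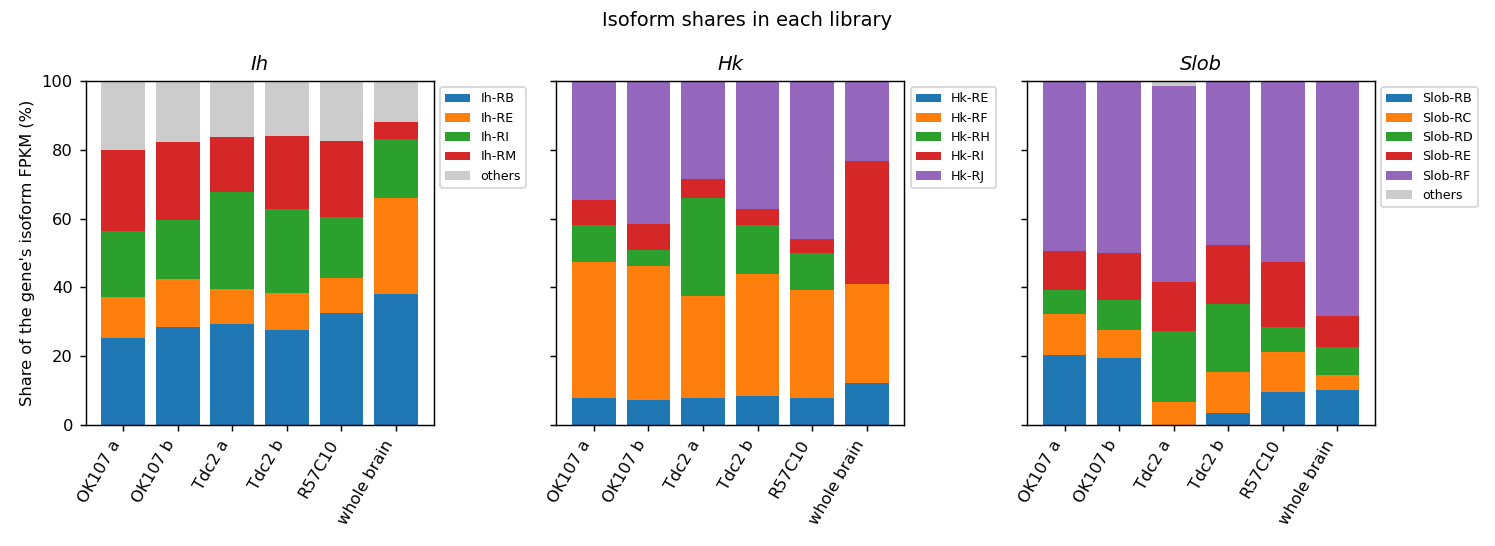
Share of each gene's summed isoform FPKM (vertical axis, percent) taken by its isoforms in each library, with isoforms under 10% in every library joined as others; qvr has 1 isoform and is not drawn. In whole brain Hk-RI takes 35.9% of Hk and Ih-RE 27.9% of Ih, and Slob-RB takes 20.2% and 19.4% of Slob in OK107 but 0 and 3.64% in Tdc2.

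In the current annotation Hk lies on the X chromosome, Slob on chromosome arm 2L, and Ih and qvr on 2R. Inside Hk lies asRNA:CR43959 on the opposite strand, with which it shares 120 exon bases, and Slob partly overlaps Myo28B1 on the opposite strand with no shared exon base. No annotated gene overlaps Ih or qvr there. Since the strand of the reads is not given in the sources used here, reads of Hk and of this antisense RNA cannot be told apart over those bases.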

How the data were processed

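RNA of 7 samples was labelled, and 6 libraries were read from the tables. Reads of 50 bases were made from cDNA amplified with a NuGEN Ovation kit, per the labels' protocols. CASAVA 1.8, TopHat 1.4.0, Cuffdiff 1.3.0 and bedtools 2.15 and the genome build dm3 are named in the submitters' processing notes. The deposited FPKM values of genes and isoforms are Cuffdiff estimates, per the file headers, and carry NA wherever Cuffdiff gave no valid status. Fold changes of library pairs on a log2 scale and q-values were deposited by the authors from Cuffdiff, and a q-value appears only under 0.05. FPKM columns that repeat a library (4 per table, 8 in all) were not used. Whether libraries were pooled is not stated. Read counts were not analysed here.

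Depth was estimated from steps of low FPKM values, over genes with 1 isoform of at least 600 bases (lengths from the current annotation). Between 66.8% and 74.8% of the low values came out within 0.2 of a whole number of reads, so depths are estimates and intervals from them cover counting error only. limma 3.58.1 in R 4.3.3 was fitted to log2(FPKM + 1), which understates differences of low genes, with trend and robust moderation. The 5 tagged-nuclei libraries entered the fit for comparisons among OK107, Tdc2 and R57C10, and all 6 libraries were used for comparisons with whole brain, with 2 residual degrees of freedom each. Genes with no value in a library of a fit were left out. The fits were tested on simulated data: 7% to 59% of simulated 2-fold and 80% to 98% of 4-fold differences were recovered, depending on the comparison. These shares hold for the simulated spread, which was alike in all libraries. In the data the SD of log2 differences within a pair was 0.106 in OK107 and 0.284 in Tdc2, over 3247 genes. Isoform use was tested with diffSplice (Simes). Alternatives were median centring, quantile normalization, pseudocounts of 0.1 and 5, other filters, limma without trend and robust, single libraries left out, and date tag or spike-in presence as a term. The rule for named genes was the 4 genes, the listed channel and partner genes, up to 4 Ly-6 genes per comparison, the 3 nearest profiles of each and genes that check the labels. The 4 genes and the lists were chosen with earlier results of these data known. All 63 listed names were found by symbol, synonym or CG number. No genome of the files' build was used, so no coordinates or sequences are given.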

Additional observations from a re-analysis of the deposited data

How the results depend on the processing

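Of 312 values of the 4 genes under alternatives (24 differences, 13 alternatives each), 263 kept their direction and side of the threshold, 29 lost the call, 13 gained it and 7 changed sign; all 52 values of R57C10 over whole brain kept theirs, and of 144 isoform-use values 125 did. Of these 7, qvr in OK107 over Tdc2 passed the threshold, at 0.18 without Tdc2 b and at 0.18 with a date-tag term. These are not independent: the date-tag term is estimated from the Tdc2 pair, so both set the OK107 pair against Tdc2 a. In both, the spread comes from the OK107 pair alone, with 1 residual degree of freedom. The others did not pass: qvr (0.087 with quantile normalization), Ih and Hk (-0.01 and -0.0417 with median centring) in OK107 over Tdc2, and Slob in OK107 over R57C10 (-0.41 with median centring and -0.0154 with quantile normalization). For qvr in OK107 over Tdc2, leaving out single libraries gave -0.20 to 0.18. Of the 4 genes, OK107 over R57C10 had 1 call with no filter on low values and 0 with a spike-in term. OK107 over Tdc2 had 0 calls among them after median centring, after quantile normalization, without trend and robust and with a spike-in term. With a date-tag term it had 4, where 6356 of all 9585 tested genes passed. Over all genes, quantile normalization gave 1422 calls in OK107 over R57C10, and a date-tag term 5164 in Tdc2 over R57C10. Isoform-use calls in OK107 over R57C10 numbered 138 with a pseudocount of 0.1 and 139 with 5. The cause of these changes was not tested. With single libraries left out, gene calls ranged from 481 to 5712 in OK107 over R57C10, 2136 to 5702 in Tdc2 over R57C10, 1311 to 6241 in OK107 over Tdc2 and 2876 to 6931 in OK107 over whole brain. Calls among the 4 genes then ranged from 0 to 3, from 1 to 4 and from 0 to 4 in the first 3 of these. Isoform-use calls ranged from 0 to 200 in OK107 over R57C10, 28 to 396 in Tdc2 over R57C10, 21 to 494 in OK107 over Tdc2, 340 to 1004 in R57C10 over whole brain, 178 to 1114 in OK107 over whole brain and 184 to 788 in Tdc2 over whole brain. The low ends came without an OK107 library, which leaves 1 residual degree of freedom from the Tdc2 pair. Fits without a Tdc2 library or with a date-tag term leave 1 residual degree of freedom from the OK107 pair. Calls gained in such fits, of genes or of isoform use, rest on the spread of that pair alone. No paired analysis was possible because the columns do not carry the replicate numbers of the labels. The spike-in term sets OK107 a with Tdc2 a and OK107 b with Tdc2 b, but as a batch term, not by those numbers. With 2 libraries or 1 per group, differences of 2-fold were often missed in simulated data, whose spread was not that of the pairs here. Counting error was at most 1.52% of the level for Ih, qvr and Slob and was not estimated for Hk.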
